A study of Mus musculus with 33 samples.

Results

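Bone marrow (BM) of mice that received no active drug was profiled to describe its resting immune transcriptome and to ask whether oral vehicle alone shifted it. All vehicle-treated and untreated mice were taken by their labels, which gave 15 of the 33 mice in the series. There were 12 vehicle-treated and 3 untreated animals. All were female C57BL/6 mice aged 6 to 8 weeks, with no transgene or deletion in the labels. The venetoclax vehicle (phosal, polyethylene glycol and ethanol) was gavaged once daily for 2 days, and the ruxolitinib vehicle (DMSO, polyethylene glycol and water) was given by the same route, 2 doses daily. Total BM RNA was taken 1, 3 or 7 days after dosing from 2 mice per vehicle per time point. Barcoded probes for 750 immune genes were counted on the NanoString nCounter, 1 lane per mouse, in 3 runs of 11 lanes. Each run held the 4 vehicle-treated mice of 1 time point (the day 1, day 3 and day 7 runs) and 1 untreated mouse. The labels do not say when the untreated mice were killed or whether litters or cages were shared.

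Adult BM is the main site of blood cell formation, and most of its cells are granulocytes and their precursors. Granule proteins are made in sequence as neutrophils mature: the azurophil proteases and myeloperoxidase in promyelocytes, lactoferrin, lipocalin 2 and cathelicidin in myelocytes, and S100 calcium-binding proteins up to the mature cell. B cell precursors, monocytes, megakaryocytes and stromal cells share the cavity, while mature T and NK cells are a minority. In RNA from whole marrow, fewer cells of a type and less RNA per cell cannot be told apart.

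Lane depth was uneven. The endogenous total ranged from 37003 to 442402 counts (median 147603), and 38.5% to 79.9% of the endogenous probes exceeded background. Background was set in each lane at 2 SD over the mean of the 8 negative probes. The untreated mice had 47977, 194748 and 37003 counts in the day 1, day 3 and day 7 runs, against 43698 to 442402 in the vehicle-treated mice. They had 289, 497 and 414 probes above background, against 441 to 599 (median 533.5) in the vehicle-treated mice. The within-run difference of 132 probes was larger than the spread between lanes (two-sided exact permutation of the labels within runs, p = 0.016, adjusted p = 0.048 over 6 lane measures). Without the untreated mouse of the day 1 run it was 70.2 probes (exact permutation p = 0.12), and without that of the day 7 run the exact permutation p was 0.08, where 0.04 is the smallest possible. The spiked positive controls went the other way, with 19126, 11093 and 13392 counts in untreated lanes and 6473 to 11999 in vehicle lanes, although the untreated lane of the day 3 run lay within the vehicle range (exact permutation p = 0.016, adjusted p = 0.048). The log2 endogenous count per housekeeping count differed by -0.03 (exact permutation p = 0.664). The design allows 125 arrangements and no p below 0.008. The untreated mouse occupied lane 11 in every run, so that lane position and treatment cannot be told apart.

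**Figure D1:**
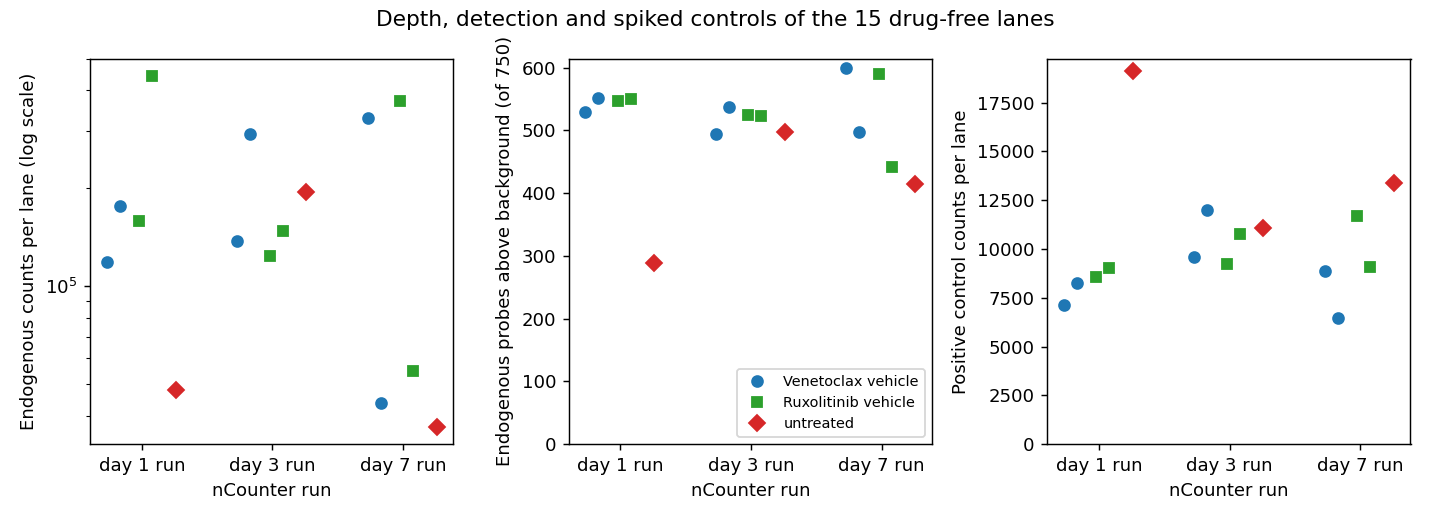
Each point is 1 mouse, grouped by nCounter run on the x axis. The left panel plots endogenous counts per lane on a log scale, the middle panel the number of endogenous probes above background, and the right panel the summed positive control counts. The untreated lanes of the day 1 and day 7 runs have 289 and 414 probes above background, fewer than any vehicle lane of their run, and the 497 of the day 3 run lie within its vehicle range.

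Drug-free marrow was dominated by neutrophil transcripts. S100a8, a subunit of the calprotectin complex of neutrophil cytosol, took a mean of 51.9% of all endogenous counts (lowest 32.5%, median 57.9%, highest 66.7%) and was the most abundant probe in 15 of 15 mice. The 95% Wilson interval of this share was at most 0.482 percentage points either side in any lane, which covers counting error only. Lyz2, the lysozyme of macrophages and granulocytes, came next with a mean of 5.71% (4.20% to 7.99%), and was second in 13 of 15 mice. The mean share of S100a8 was 9.09 times that of Lyz2. Shares compare probes and not molecules, because each probe hybridises with its own efficiency.

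A further 4 genes had a mean share above 1%, and each encodes a myeloid effector protein. Camp, the cathelicidin of specific granules, held 4.37% (2.01% to 6.66%). Lcn2, the siderophore-binding lipocalin, held 3.50% and had the largest ratio of highest to lowest share among these 6 genes, from 0.640% to 7.56%. Mpo, the peroxidase of azurophil granules, held 1.34% (0.380% to 3.04%), and the chitinase-like gene Chil3 held 1.31% (0.395% to 2.73%). The order of these means did not hold in every run: in the 5 mice of the day 7 run the share of Lcn2 exceeded that of Camp, and in 2 of them that of Lyz2. Together the 10 most abundant probes took 71.1% of the counts, the first 20 took 74.7% and 125 probes took 90%. The other end of the panel was thin, with 342 probes under 0.01% of the counts each.

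Other genes of the first 20 came from several functions. Anp32b, a histone chaperone, and Anxa1, a glucocorticoid-responsive phospholipid-binding protein, held 0.825% and 0.797%. Antigen presentation was represented by H2-D1 (0.610%), the invariant chain Cd74 (0.480%) and H2-Aa (0.333%). Lcp1 (0.459%) and Vim (0.387%) encode cytoskeletal proteins, and Cybb (0.367%) and Ncf4 (0.308%) are parts of the phagocyte oxidase. Gpi1, Tfrc, Lgals3 and Prg2, which encode a glycolytic enzyme, the transferrin receptor, galectin-3 and an eosinophil granule protein, held between 0.300% and 0.343%.

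**Figure D2:**
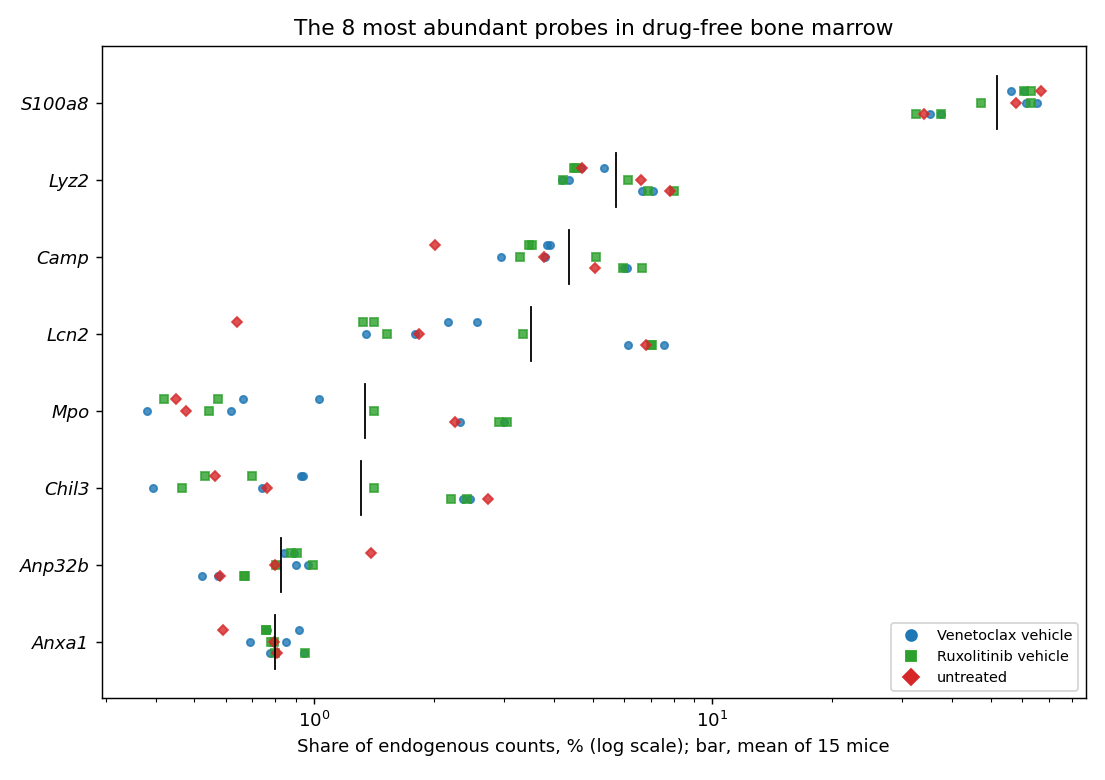
Share of endogenous counts (percent, log scale) of the 8 most abundant probes, 1 point per mouse, with the mean of 15 mice as a bar. S100a8 lies between 32.5% and 66.7% in every mouse, and no other probe exceeds 7.99%.

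Marker lists placed the material as whole marrow. The 16 neutrophil granule and antimicrobial genes on the panel summed to a median of 65.2% of the counts (51.1% to 70.9%), with 14 of 16 above background in all 15 lanes. The exceptions were the chemokine receptor Cxcr1, above background in 2 lanes, and the activating receptor Trem1, in 14. The 20 monocyte and macrophage genes summed to 5.93% (4.69% to 9.08%), most of it Lyz2. Of the 11 B cell precursor genes 7 were above background in every lane and the other 4 in 12 to 14 lanes. Pax5, which defines the lineage, Il7r, the receptor of its growth factor, and Igll1, the surrogate light chain, were above background in 15 of 15 lanes, with mean scaled counts of 148.7, 121.0 and 102.5. Scaled counts are raw counts divided by the lane's relative housekeeping level, and between genes they are not per length.

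T cell genes and most NK genes were weak. All 24 T cell genes summed to a median of 0.172% of the counts, and Cd3d, a chain of the T cell receptor complex, was the only one above background in every lane. Cd4 was above background in 12 lanes, Cd8a in 10, and Foxp3, the regulatory T cell factor, in 1. Of the 27 NK and cytotoxic genes 2 were above background in all lanes (the receptors Klra2 and Cd244), 5 in none, and the activating receptor Ncr1 in 12. The 5 were Fasl, Klra15, Klra20, Klra21 and Klra27. Whether mice of this strain carry each of these Klra genes was not tested. The cells that gave the Klra2 and Cd244 counts were not identified. Of the 9 stem and progenitor genes 4 were above background in every lane, among them Spn at 123.6 and the transcription factor gene Runx1 at 77.2. The progenitor receptors Kit and Flt3 passed in 13 and 11 lanes, with mean scaled counts of 11.8 and 10.4. Megakaryocyte genes were more evident, with 6 of 6 above background in all lanes, among them Itga2b at 39.1 and the platelet chemokine Ppbp at 92.2.

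Of the 750 genes 273 (36.4%) were above background in all 15 lanes and 96 (12.8%) in 0 of 15, where raw counts never exceeded 7. The detection limit corresponded to 0.00145% to 0.0156% of a lane's endogenous counts, so lower levels were not detectable at this depth. Many interleukin and chemokine genes were in the undetected set. Interleukin genes were undetected in 17 of 28 cases, including Il4, Il5, Il9, Il10, Il17a, Il21, Il22 and Il23a, which encode cytokines of polarised lymphocytes and their inducers, and the stromal lymphoid factor Il7. Of the other 11, Il16, Il1b and Il12a were above background in every lane, at mean scaled counts of 100.5, 38.4 and 19.5, Il18 in 13 lanes and Il15 in 8. The remaining 6, among them Il6 and Il2, passed in 1 to 3 lanes. Chemokines were undetected in 14 of 36 cases, among them the inducible neutrophil attractants Cxcl1, Cxcl2 and Cxcl3 and the monocyte attractant Ccl2. By contrast Ccl9 (259.9), Ppbp (92.2) and the niche chemokine Cxcl12 (61.4) were above background in every lane.

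Interferon genes and several acute-phase genes were at or near the detection limit. None of the 6 interferon genes was above background in more than 2 lanes, and Ifna2 and Ifnl2 were above it in none. Their inducible targets were nevertheless measurable, with 14 of 36 genes above background in all lanes, led by Ifitm2 at 398.8 and Isg20 at 163.8, while Mx1, Ifi44l and Gbp2b passed in none. The hepatic complement genes C8a, C8b, Masp1 and Mbl2 were undetected, as were Saa1, Crp and Hamp, which encode acute-phase or iron-regulatory products of liver. C3, also made by myeloid cells, had a mean scaled count of 374.1. The Y-linked gene Usp9y was above background in no lane. All mice were labelled female, so no male lane shows whether its probe could be detected at this depth.

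Vehicle-treated and untreated mice differed in no gene past the threshold of the main test. The edgeR quasi-likelihood test, with run as a block, called 0 of 523 genes (0.00%) at an adjusted p-value under 0.05, and 32 genes (6.12%) had an unadjusted p-value under 0.05. The smallest adjusted p-value was 0.168, shared by Nos2 and Cd83. The limma fit on log2 values also called 0 genes (60 with an unadjusted p-value under 0.05), while DESeq2 called 1, Nos2 (42 unadjusted). The median log2 fold change over all tested genes was -0.01. For 397 genes (75.9%) the 95% confidence interval lay within 2-fold either way, and for the others the interval reached a change of that size in at least 1 direction. The labels do not say whether litters or cages were shared, and the p-values measure the spread between these 15 animals.

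None of the most abundant genes was called. S100a8 had scaled counts of 36662 to 107315 (median 79026) in vehicle-treated mice, and of 100083, 88559 and 40105 in untreated mice. The untreated values lay inside the vehicle range of their own run in each case, and the log2 fold change was -0.04 ± 0.16 (SE), with a 95% interval of -0.38 to 0.29. Lyz2 had a log2 fold change of -0.25 ± 0.13, Camp of 0.32 ± 0.15, Lcn2 of 0.41 ± 0.23, Mpo of 0.44 ± 0.23 and Chil3 of 0.00 ± 0.21. The Lyz2 value came mostly from the day 3 run, where the untreated mouse lay furthest above the vehicle-treated mice. In the day 1 run the untreated mouse lay within the vehicle range of Lyz2. The Lcn2 value came from the day 1 run, where the untreated mouse had 960 scaled counts and the within-run log2 fold change was 1.46, against 0.06 and 0.02 in the day 3 and day 7 runs. Across the 129 genes with a mean scaled count of at least 100, the median standard error was 0.17 and 126 intervals lay within 2-fold.

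**Figure D3:**
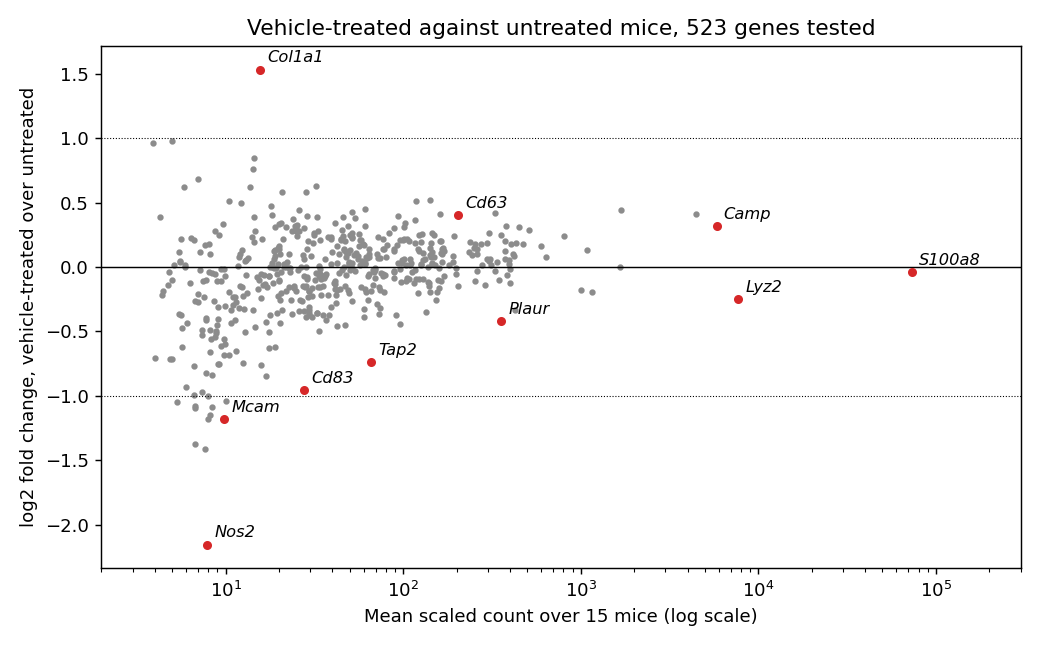
Log2 fold change of vehicle-treated over untreated mice against the mean scaled count of 15 mice (log scale), 1 point per gene tested, with dotted lines at 2-fold either way. The spread narrows with level, from Nos2 at -2.15 among the weakest genes to S100a8 at -0.04.

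Cd83, a maturation marker of dendritic and B cells, was the best-measured gene at the head of the ranking. Its scaled count was 12.2 to 36.1 (median 20.1) in the vehicle-treated mice and 43.8, 42.4 and 51.1 in the untreated mice. The groups did not overlap in these values, which are without background subtraction. The log2 fold change was -0.96 ± 0.25, with an unadjusted p-value of 0.000644 and an edgeR adjusted p-value of 0.168. In raw counts the untreated lanes held 14, 54 and 16 of Cd83, and the vehicle lanes 6 to 68. The mean negative control count in the same untreated lanes was 3.62, 2.38 and 2.75. The part of background in the Cd83 difference was not tested. It passed the threshold where all 20 housekeeping probes set the scale (log2 fold change -1.13, edgeR adjusted p = 0.0137), a setting that moved the median of all genes to -0.18.

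Nos2, the inducible nitric oxide synthase, had the largest fold change, -2.15 ± 0.53, but was measured near background. It falls outside the level rule for named genes and is named because its values were seen. The untreated lanes had 11, 8 and 7 raw counts and the vehicle lanes 1 to 8. Because the day 1 and day 7 untreated lanes were shallow, these became scaled counts of 34.4, 6.28 and 22.4, against at most 11.05 in vehicle lanes. The detection limit in the same 3 lanes stood at 23.3, 5.61 and 17.0 scaled counts. All 13 genes with a fold change over 2-fold had a mean scaled count under 20, and 12 of them were lower in vehicle-treated mice.

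This level dependence ran through the ranking. In the 168 genes with a mean scaled count under 20 the median log2 fold change was -0.15, with 116 genes below 0, and in the 129 genes at 100 or more it was 0.06, with 40 below 0. After subtraction of each lane's mean negative control count the same medians were 0.32 and 0.12. The mean negative control count was 3.62, 2.38 and 2.75 in the untreated lanes and 1.25 to 2.75 in the vehicle lanes (exact permutation p = 0.032, adjusted p = 0.064). The part of background in the weak genes was not tested further.

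Among the other named genes no adjusted p-value was below 0.628. Tap2, the peptide transporter of class I presentation, had a log2 fold change of -0.74 ± 0.24, and Plaur, the urokinase receptor, of -0.42 ± 0.14. Untreated scaled counts of Tap2 were 171.9, 91.9 and 38.3, so the first lay far above the 44.9 to 76.2 of the vehicle-treated mice in its run. The corresponding within-run log2 fold change was -1.45 in the day 1 run. Hcst, a signalling adaptor of NK receptors, the death receptor Fas and the kinase Jak3 had values of -0.46 ± 0.22, -0.50 ± 0.24 and -0.45 ± 0.23. Jak3 stood at 0.039 within the day 3 run and, equally, without the lanes under 60000 counts. On the other side stood Cd63, a granule membrane tetraspanin (0.40 ± 0.17), Camp (0.32 ± 0.15), the chromatin protein Hmgb1 (0.41 ± 0.20) and the protease gene Ctsg (0.52 ± 0.25). Camp stood at 3019 scaled counts in the untreated mouse of the day 1 run, below the 5103 to 5532 of the vehicle-treated mice there, and at 5778 in that of the day 3 run, within the vehicle range, with a log2 fold change of -0.047 in that run. In the day 7 run it stood at 6003, again below the vehicle-treated mice. Several of these values leaned on the untreated mouse of the day 1 run. Without it the log2 fold change was 0.16 for Hmgb1, 0.11 for Camp, 0.25 for Cd63, -0.15 for Jak3, -0.29 for Tap2 and -0.25 for Plaur.

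Taken run by run, the comparison rests on 1 untreated mouse each time. Within the day 1 run 17 of 523 genes were called (82 with an unadjusted p-value under 0.05), 4 of them lower in vehicle-treated mice. Within the day 3 and day 7 runs 0 were called (9 and 29 unadjusted). The test of whether the difference varied between runs called 0 genes (62 unadjusted, smallest edgeR adjusted p = 0.0774). The lone sample is assumed to vary like the vehicle-treated mice of its run. The untreated lane of the day 1 run had the fewest probes above background of all 15. The 17 calls compare that 1 lane with 4 others, and the lane, the animal and the lack of vehicle cannot be told apart in them.

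In every run the untreated mouse lay above all 4 vehicle-treated mice for 11 of 523 genes (2.10%) and below them for 4 (0.765%). Of the 11 genes 9 had a mean scaled count under 20, among them the eosinophil receptor Ccr3, the T and NK chemokine Xcl1 and the viral RNA sensor Tlr7. Cd83 and the erythroid adhesion molecule Icam4 exceeded that level. The 4 genes with lower untreated values were Eng, Ikzf2, Mapk8 and Gtf3c1. None of the 15 had an edgeR adjusted p-value below 0.168.

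The 2 vehicles gave the same count. The venetoclax vehicle against untreated mice called 0 of 523 genes (0.00%), with 31 unadjusted and a smallest edgeR adjusted p-value of 0.237, and the ruxolitinib vehicle called 0 (0.00%), with 27 unadjusted and a smallest adjusted p-value of 0.503. DESeq2 and limma also called 0 genes for each vehicle (34 and 57 unadjusted for the venetoclax vehicle, 28 and 50 for the ruxolitinib vehicle). Both comparisons share the 3 untreated mice. Nos2 had log2 fold changes of -2.15 ± 0.59 and -2.16 ± 0.59, and S100a8 of 0.01 ± 0.19 and -0.10 ± 0.18.

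Because the main test called 0 genes, the lists by function are described by direction and median only. Neutrophil granule genes were above 0 in 10 of 15 tested cases, with a median log2 fold change of 0.13 against -0.01 for all genes. With all housekeeping probes both medians were lower, at -0.02 and -0.18. Elane, the neutrophil elastase, had a value of 0.42 ± 0.29, and of 0.98, 0.43 and 0.12 within the day 1, day 3 and day 7 runs. The JAK and STAT pathway genes, which include those of the kinases that ruxolitinib inhibits, had a median of -0.02 (6 above and 6 below 0), and the BCL-2 family and apoptosis genes also -0.02 (5 above and 6 below). The 32 interferon-inducible genes had a median of -0.10 (12 above and 20 below 0), with the abundant Ifitm2 at -0.13 and Isg20 at 0.11. Of those with a mean scaled count of at least 20, 10 were above and 10 below 0. The MHC class I and class II genes had medians of 0.01 and 0.04, and the glucocorticoid response genes -0.05.

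Chemokine receptors and NK genes had the lowest medians among lists of 10 or more tested genes. Of 16 chemokine receptors 12 were below 0 (median -0.44), but the abundant Ccr2 (0.06), Cxcr4 (0.20) and Cxcr2 (0.13) were not among them. Those below 0 included Ccr3 (-1.04), Ccr9 (-0.85) and Cxcr6 (-0.75), each with a mean scaled count under 20. For the NK and cytotoxic list 10 of 12 tested genes were below 0 (median -0.27). Without background subtraction, the summed scaled counts of all 27 genes were 383.9 to 421.9 in the untreated mice and 238.1 to 357.8 in the vehicle-treated mice. These sums include 5 genes above background in no lane. The detection limit per gene was 23.3, 5.61 and 17.0 scaled counts in the untreated lanes of the day 1, day 3 and day 7 runs. In vehicle lanes it was at most 9.76. How much of the sums was background was not tested. After background subtraction the chemokine receptor median was -0.11 and the NK median 0.14, beside 0.18 for all genes tested.

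Among vehicle-treated mice of 1 run the median within-run SD of log2 values was 0.32 over all genes tested and 0.50 over the 168 with a mean scaled count under 20. It was 0.25 over 270 genes, those detected in each of the 15 lanes with a mean scaled count of at least 20. Among the leading genes it was 0.12 for Lyz2, 0.13 for Camp and 0.25 for S100a8, but 0.46 for Mpo. The most variable of these 270 genes was Ppbp (SD 0.75), which ranged from 23.6 to 187.4 scaled counts over the 12 mice. Lbp, the lipopolysaccharide-binding protein (0.65), the ectoenzyme Cd38 (0.65), Elane (0.61), Traf3 (0.57), Cxcl12 (0.55), Il1b (0.51), Cd36 (0.50), Pou2af1 (0.49) and Pou2f2 (0.49) followed. The 4 mice of a run include 2 of each vehicle, so this SD also holds any difference between the vehicles.

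The larger contrast in drug-free marrow was between runs. In a comparison added after the data were seen, the 12 vehicle-treated mice were fitted with run and vehicle as terms. The day 7 run differed from the mean of the day 1 and day 3 runs in 155 genes that were higher (29.6% of 523) and 114 that were lower (21.8%), 90 of them by over 2-fold. Of the calls 57.6% were higher, and this split depended on the scale: it was 80.6% with the endogenous total and 46.8% with all housekeeping probes. The day 3 run against the day 1 run called 0 genes (0.00%), with 16 unadjusted in edgeR and 16 each in DESeq2 and limma, which also called 0. Time after dosing and run cannot be told apart in these mice.

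Elane had the highest log2 fold change of the genes selected by rule. It had scaled counts of 667 to 878 in the day 7 run, against 107 to 191 in the day 1 run and 64.8 to 291.1 in the day 3 run. The day 7 run overlapped with neither, and its level was 4.97-fold higher (log2 fold change 2.31 ± 0.25, edgeR adjusted p = 4.6e-07). Ctsg, cathepsin G, was 4.51-fold higher (2.17 ± 0.19) and Mpo 3.32-fold (1.73 ± 0.20). Lcn2 was 2.95-fold higher and reached 7400 to 9493 scaled counts, against at most 4310 in the other 2 runs. S100a8 went the opposite way, from 60829 to 107315 in the day 1 and day 3 runs to 36662 to 45353 in the day 7 run (log2 fold change -1.08 ± 0.17, edgeR adjusted p = 2.2e-05).

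The sequences just upstream of Elane, Ctsg, Mpo and S100a8 are shown as examples, the first 3 from genes that were higher and the last from a gene that was lower. Lcn2, which was also higher, is not shown. Each is the 250 bases before the annotated RefSeq start in build GRCm38.p6, on the gene's strand, with capitals on matches to the letters TTNNGNAA (C/EBP), GAGGAA (PU.1) or TGTGGT (RUNX) on either strand. These are motifs of factors that act in granulocyte development.
Elane, chr10:79886062-79886311, plus strand: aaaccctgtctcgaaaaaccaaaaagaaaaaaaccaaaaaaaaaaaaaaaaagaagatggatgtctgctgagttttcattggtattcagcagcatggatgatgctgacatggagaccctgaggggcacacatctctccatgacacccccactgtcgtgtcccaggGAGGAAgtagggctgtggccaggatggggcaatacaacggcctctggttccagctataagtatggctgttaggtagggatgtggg
Ctsg, chr14:56102575-56102824, minus strand: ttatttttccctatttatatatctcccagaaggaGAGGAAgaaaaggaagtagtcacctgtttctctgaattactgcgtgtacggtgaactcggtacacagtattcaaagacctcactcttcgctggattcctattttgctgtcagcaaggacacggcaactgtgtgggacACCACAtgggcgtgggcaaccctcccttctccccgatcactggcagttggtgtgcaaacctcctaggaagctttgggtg
Mpo, chr11:87793534-87793783, plus strand: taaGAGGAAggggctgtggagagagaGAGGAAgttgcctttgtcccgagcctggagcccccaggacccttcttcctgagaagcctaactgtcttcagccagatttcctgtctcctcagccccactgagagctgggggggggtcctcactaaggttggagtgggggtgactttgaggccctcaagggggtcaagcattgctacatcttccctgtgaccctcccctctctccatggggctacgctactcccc
S100a8, chr3:90668821-90669070, plus strand: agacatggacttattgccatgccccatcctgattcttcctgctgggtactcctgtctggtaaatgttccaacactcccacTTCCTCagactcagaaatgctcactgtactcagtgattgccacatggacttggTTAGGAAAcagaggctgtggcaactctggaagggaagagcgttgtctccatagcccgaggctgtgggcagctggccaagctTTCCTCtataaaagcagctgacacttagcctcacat
The PU.1 letters occurred once in Elane and Ctsg and 2 times each in Mpo and S100a8, the RUNX letters once in Ctsg, and the C/EBP letters once in S100a8. Of 32536 distinct windows of this length, 23.4% held the PU.1 letters, 14.0% the RUNX letters and 36.8% the C/EBP letters. A match describes the letters and not a bound site.

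In the day 7 run 11 of 15 tested neutrophil genes were higher and 2 lower, against 29.6% and 21.8% of all genes, with a median log2 fold change of 1.04 against 0.06 for all genes. Beside the genes above, Cybb (1.31 ± 0.14), the receptor Cxcr2 (1.18), the lactoferrin gene Ltf (1.04) and the gelatinase gene Mmp9 (0.90) were higher. Csf3r, the receptor of granulocyte colony-stimulating factor, was lower with S100a8 (-0.75). Direction for this list was the same under the 4 other scalings and background settings tried, with medians of 0.92 to 1.33. Of the genes selected by rule, Cd9 (1.90), the lysosomal genes Lamp2 (1.53) and Ctss (1.36), Chil3 (1.35) and the transcription factor gene Mef2c (1.21) completed the 10 highest.

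Monocyte and progenitor genes followed the same direction. Of 19 monocyte and macrophage genes tested 11 were higher and 0 lower (median 0.64), led by the complement genes C1qb (1.51) and C1qa (1.41) and by Msr1 (1.21) and Cd68 (1.20), while Lyz2 (0.28) and Ccr2 (0.02) were not called. Of 8 stem and progenitor genes tested 6 were higher and 0 lower (median 0.60), among them Flt3 (1.30) and Cd34 (1.24). The Toll-like receptor pathway had 7 of 17 genes higher, among them Tlr4 (1.12) and Tlr7 (1.01), 1 lower and 9 not called. Over all genes 29.6% were higher and 21.8% lower. With a list this small, the 7 higher genes are not far from that share.

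B lineage genes were called in both directions. Pou2af1, a B cell transcriptional coactivator, had the lowest log2 fold change of the genes selected by rule (-1.59 ± 0.23), followed by the inhibitory receptor Cd22 (-1.49). Il7r fell from between 98.5 and 182.1 scaled counts in the day 1 and day 3 runs to between 52.5 and 70.2 in the day 7 run (-1.20 ± 0.16). Pax5 fell from between 122.4 and 279.6 to between 79.1 and 94.6 (-1.11 ± 0.16). Yet the receptor component Cd79b (1.10), the surrogate light chain Igll1 (0.55), the adaptor Blnk (0.79) and Ms4a1, which encodes CD20 (1.11), were higher in the same mice. Of the 11 B cell precursor genes 5 were higher, 3 lower and 3 not called, and of the 11 mature B cell genes tested 2 were higher, 4 lower and 5 not called. With lists this small, these counts are not far from the 29.6% higher and 21.8% lower over all genes.

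Other genes on the lower side were the integrin chain Itgb3 (-1.37), the kinases Ikbke (-1.41) and Tyk2 (-1.35), the interferon target Ifit3 (-1.26), the eosinophil granule gene Prg2 (-1.25) and Tnfrsf14 (-1.21). Prg2 was the 1 lower gene of 5 tested eosinophil, basophil and mast cell genes, and the other 4 were higher, among them the eosinophil chemokine receptor Ccr3 (1.74). Over all genes tested 29.6% were higher and 21.8% lower. Of the 32 interferon-inducible genes 5 were higher, 6 lower and 21 not called. Irf7 (0.99) was among the higher genes and Oas2 (-0.84) and Mx2 (-1.11) among the lower.

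**Figure D4:**
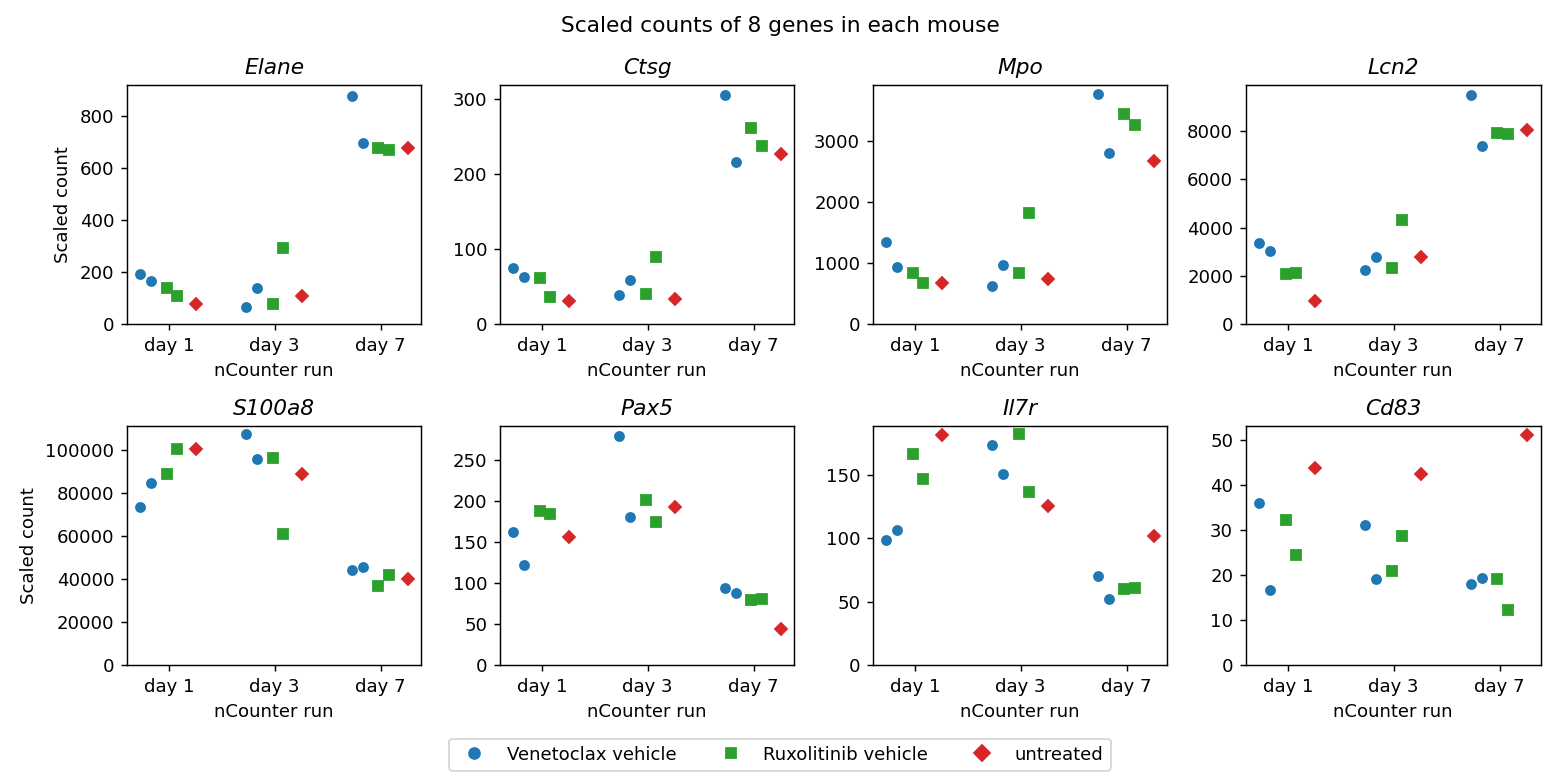
Scaled counts of 8 genes, 1 point per mouse and 1 panel per gene, by nCounter run. Elane, Ctsg, Mpo and Lcn2 are higher, and S100a8, Pax5 and Il7r lower, in the 4 vehicle-treated mice of the day 7 run, and the untreated mouse of that run lies to the same side of the other 2 untreated mice; Cd83 is above 42 in each untreated mouse and at most 36.1 in vehicle-treated mice.

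The untreated mouse read in the day 7 run received no vehicle, and its values were set beside those of the vehicle-treated mice as a description. It was above both other untreated mice for 284 of 523 genes (54.3%) and below both for 131 (25%). Among the 155 genes called higher in vehicle-treated mice it was above both in 141 (91.0%), and among the 114 called lower it was below both in 78 (68.4%). Among the 254 genes not called these shares were 52.0% and 19.7%. All 10 higher and all 10 lower genes selected by rule showed the same side. Elane was 75.0, 107.6 and 674.1 in the untreated mice of the day 1, day 3 and day 7 runs, and S100a8 was 100083, 88559 and 40105. With 1 untreated mouse per run this contrast has no replicate test, and whether the run, the harvest or the animals differed was not tested.

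**Figure D5:**
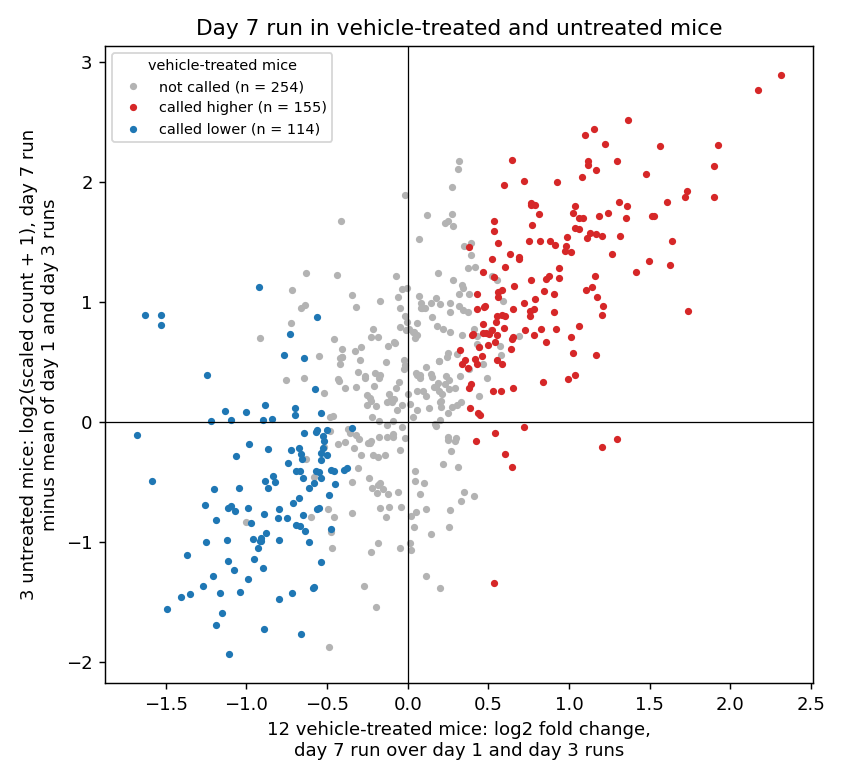
Each point is 1 of 523 genes: the x axis gives the log2 fold change of the day 7 run over the day 1 and day 3 runs in 12 vehicle-treated mice, and the y axis the same difference in log2(scaled count + 1) between the 3 untreated mice. Of the genes called higher in vehicle-treated mice, 141 of 155 had their highest untreated value in the day 7 run.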

How the data were processed

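Total BM RNA was hybridised to the NanoString panel and read in 1 lane per mouse. The deposited values are raw barcode counts per probe as exported from the instrument, with the control probes included and without the normalisation the methods describe. The lowest deposited count is 1. Groups came from the labels and runs from the file headers, where the day 3 run reads as day 2.

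Each lane was divided by its relative geometric mean of the 15 of 20 housekeeping probes above background in all 15 lanes. Genes above background in at least 8 of the 15 lanes were tested (523 of 750) with edgeR 4.0.16 in R 4.3.3, with run as a block (common dispersion 0.0282, 11 residual degrees of freedom) and Benjamini-Hochberg adjustment at 0.05. A gene above background only in the 3 untreated lanes could not pass this filter. A gene above background only in vehicle lanes could. DESeq2 1.42.0 and limma 3.58.1 on log2(scaled count + 1) were alternatives, with those in the closing section. Lane measures were compared by exact permutation within runs with Python 3.11.15. No 2 lanes were identical.

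The members, the 30 gene lists and the comparisons were chosen with earlier results of these data known. The text names up to 10 genes per direction past the threshold by fold change or, where fewer than 5 pass, the 10 with the smallest p-value (mean scaled count at least 20, above background in all 15 lanes), the 20 with the highest share, the 10 with the largest within-run SD, and members of lists by level or p-value. The contrasts between runs were added after the data were seen, as were other genes named from lists. Some genes that these rules select are not reported here. Of 750 genes 727 matched GRCm38.p6 RefSeq by accession, 16 by symbol and 7 did not match.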

Additional observations from a re-analysis of the deposited data

How the results depend on the processing

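The count of 0 genes between vehicle-treated and untreated mice remained under TMM scaling, the endogenous total, stricter filters, background subtraction, limma, all 33 lanes in 1 model, no run block and, added after the data were seen, without the day 1 run. It was 2 with all housekeeping probes (Cd83 and Nos2), 4 with no filter (Nos2 and 3 genes above background in at most 2 lanes, Abcb1a, Cspg4 and Tpsab1) and 1 with DESeq2 (Nos2), all lower in vehicle-treated mice. For the venetoclax vehicle it was 2 with all housekeeping probes and 1 with no filter, and for the ruxolitinib vehicle 1 and 1. Leaving out 1 mouse gave 0 to 2 genes, and 0 to 1 for each vehicle. In each comparison only the omission of the untreated mouse of the day 3 run gave any call (Nos2, with Cxcl11 for both vehicles together). The cause was not tested. These settings moved the median log2 fold change of all genes from -0.01 to -0.18 (all housekeeping probes), -0.14 (no filter) and 0.18 (background subtracted). With the replicate number as a block beside run, the pairing gave 0 genes, and 256 for the day 7 run. Same-numbered vehicle-treated mice correlated at 0.12, 0.56 and 0.05, so pairing by number was not established.

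Without lanes under 60000 counts, which leaves 1 untreated mouse, Camp turned to a log2 fold change of -0.047 and Jak3 to 0.039, and both had these values within the day 3 run. The day 7 count of 269 fell to 178 where only genes above background in all 15 lanes were tested (273 genes), and was 203 to 294 when 1 mouse was left out. The difference in probes above background ranged from 70.2 to 186.5 when 1 mouse was left out, and missed 0.05 without the untreated mouse of the day 1 run (exact permutation p = 0.12) or of the day 7 run (exact permutation p = 0.08), where 25 arrangements allow no p below 0.04. Depth limits genes with a mean scaled count under 20, of which 58 of 168 had intervals within 2-fold.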
